A study of Mus musculus with 12 samples.

Results

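Nbl1, Parva, Tm4sf4, Crip1, Tppp3, Celf6, Fam89a and Anxa2 are genes with few transcripts in neuroblasts and many in the ganglion neurons beside them in mouse superior mesenteric ganglia (SMG). The 8 genes were selected on that contrast in these libraries, so their values in it are a description, and no test of it is given for them. All 8 were found, each once, among the 32289 features counted in 12 libraries of 1 mouse each. Their unique molecular identifiers (UMIs) were then followed through neurons of low and high UMI content, glia, vessels and connective tissue cells, dividing neuroblasts and the conditions of the study.

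The Th-MYCN mouse carries human MYCN under the rat tyrosine hydroxylase promoter, so the transgene is driven in cells that make catecholamines. Hemizygous Th-MYCN+/- mice of the strain 129+Ter/SvJcl were sampled at 3 weeks of age (ThMYCN_3w, n = 10, #1 to #10) and at 6 weeks (ThMYCN_6w, n = 1). A wild-type mouse of the same strain was sampled at 3 weeks (WT_3w, n = 1), and the labels name no treatment. The 6-week SMG was picked by the authors because it bore a tumour visible to the eye, so age and tumour cannot be told apart in it. The libraries held 1147772 UMIs in WT_3w, 4824039 in ThMYCN_6w and between 1444554 and 6388766 in the ThMYCN_3w mice, with a median of 3000078.5. Levels are given as counts per 1000000 UMIs (CPM) in the sum over the cells of 1 class in 1 mouse, and since reads came from transcript 3′ ends, levels were not compared between genes. Intervals on single libraries are 95% Poisson intervals and cover counting error only.

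Sympathetic neurons descend from neural crest cells through dividing neuroblasts that leave the cell cycle, extend axons and build up the machinery for noradrenaline. In neuroblastoma this course is thought to halt, and tumours that do mature form ganglion-like cells amid Schwann cells. The selected genes touch several sides of such a change, from an extracellular inhibitor of bone morphogenetic proteins (BMPs) and proteins of adhesion and membranes to proteins of the cytoskeleton and of RNA processing.

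The 12049 cells kept fell into 17 clusters, which were named after marker genes. Neuroblast-like cells numbered 5205, with a median of 2740 UMIs. Ganglion-like cells numbered 2746, with a median of 1147 UMIs, and Schwann-like cells 2888, with a median of 945.5. The remaining cells were endothelial-like (530), fibroblast-like (141), myofibroblast-like (168), macrophage-like (242) and NKT-like (43), and 86 stayed unnamed. Among neuroblast-like clusters, a cluster of 1567 cells and another of 724 were led by cell cycle genes such as Ccnb1, Top2a and Nusap1. A Schwann-like cluster of 680 cells was led by the stress and immediate early genes Ccn1, Socs3 and Fos. The macrophage-like cluster had the B cell gene Igkc among its leading genes, and a finer clustering split off 49 B cell-like cells from the whole.

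The classes bore their names in defining markers. Of the 16 ganglion markers, none was at 0 in ganglion-like cells, where they summed to 38055 ± 4040 CPM (mean ± SD, n = 10), against 4023 ± 1938 in neuroblast-like cells. The 16 neuroblast markers summed to 20937 ± 2622 CPM in neuroblast-like and 4388 ± 1185 in ganglion-like cells, and the 12 Schwann markers to 47080.2 ± 4093 CPM in Schwann-like cells. The human MYCN transgene gave 13 to 1030 UMIs per ThMYCN_3w mouse in neuroblast-like cells and 0 to 6 in ganglion-like cells. It gave 0 UMIs in those cells of WT_3w, where 43 cells with a median of 349 UMIs took the neuroblast-like name.

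Mouse #2 stood apart from the other ThMYCN_3w mice. Ganglion-like cells made up 81.2% of its 1866 cells, against a median of 8.85% over the 10 mice, and 1 ganglion-like cluster of 1329 cells drew 86.8% of them from #2. The share of UMIs that lay in cells was 38.9% in #2, the lowest of the 12 libraries, and 9893 barcodes there held over 100 UMIs, against at most 2131 elsewhere. Schwann-like cells of #2 numbered 12. Values that rest on #2 are therefore given with and without it. Of 11955 distinct barcodes, 93 occurred in more than 1 library.

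Nbl1 encodes a secreted protein of the DAN family that binds BMPs and blocks them. In neuroblast-like cells its level ranged from 0.750 CPM (#6) through a median of 18.5 to 72.9 (#2). In ganglion-like cells the range was 340.8 (#6) to 528 (#1), with a median of 423. Every one of the 10 mice had more Nbl1 in its ganglion-like cells, and the highest neuroblast-like value lay far under the lowest ganglion-like one. The fitted log2 difference was 4.29 (SE 0.33).

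Parva, Tm4sf4 and Anxa2 encode proteins at the cell's edge. α-Parvin, the product of Parva, joins integrin-linked kinase and PINCH proteins in the complex that ties integrins to actin. Its gene's level was 3.75, 31.4 and 97.1 CPM (lowest, median and highest mouse) in neuroblast-like and 319.7, 558 and 681 CPM in ganglion-like cells. The lowest ganglion-like value belonged to #2, and the mean over the other mice was 549.9 ± 75.1 CPM, against 527 ± 102 with #2. Tm4sf4, which encodes a membrane protein of the L6 family, stood at 2.25, 8.83 and 90.4 CPM in neuroblast-like and at 195, 267 and 411 CPM in ganglion-like cells. Mouse #7 was highest for Tm4sf4 in both classes. With log-normalized clustering the neuroblast-like mean of Tm4sf4 was 4.03 CPM in place of 24.3. Every other member had a lower neuroblast-like mean then too. Anxa2 encodes an annexin, which binds phospholipids in the presence of calcium and pairs with S100a10. It measured 6.75, 27.8 and 182 CPM in neuroblast-like and 374, 849 and 997 CPM in ganglion-like cells. The classes did not overlap for any of these genes, and the log2 differences were 3.91 (SE 0.28) for Parva, 4.05 (SE 0.39) for Tm4sf4 and 4.28 (SE 0.30) for Anxa2.

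Crip1 encodes a small zinc-binding LIM-domain protein, and Tppp3 a protein that binds and bundles microtubules. Crip1 was at 20.5, 48.6 and 349.7 CPM (lowest, median and highest mouse) in neuroblast-like and at 454, 1219.8 and 3082 CPM in ganglion-like cells. The high value in both classes came from #2, and without it the ganglion-like mean was 1176 ± 412 CPM, against 1367 ± 717 with it. Tppp3 was at 34.5, 143 and 672 CPM in neuroblast-like and at 2087, 2828 and 3619 CPM in ganglion-like cells. Both genes kept the classes apart in all 10 mice, Crip1 with a log2 difference of 4.15 (SE 0.27) and Tppp3 with 4.17 (SE 0.29).

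Celf6 encodes an RNA-binding protein of the CELF family, whose members act on splicing and on the stability and translation of mRNA. It ranged from 0 (#2) to 71.5 CPM (#4) in neuroblast-like cells, with a median of 28.8, and from 200.3 (#2) to 399 (#8) in ganglion-like cells, with a median of 306. Little is known of the function of Fam89a. Its values were 9.00, 21.7 and 70.3 CPM in neuroblast-like and 199.5, 274 and 356 CPM in ganglion-like cells. The log2 differences were 3.14 (SE 0.20) for Celf6 and 3.57 (SE 0.23) for Fam89a. Across the list the median log2 difference was 4.10, beside a median of −0.04 over the 7818 genes tested. Of those genes, 5374 (68.7%) passed an adjusted p of 0.05 in the test between the classes. Because this contrast chose the members, nothing is read from their values in it.

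**Figure D1:**
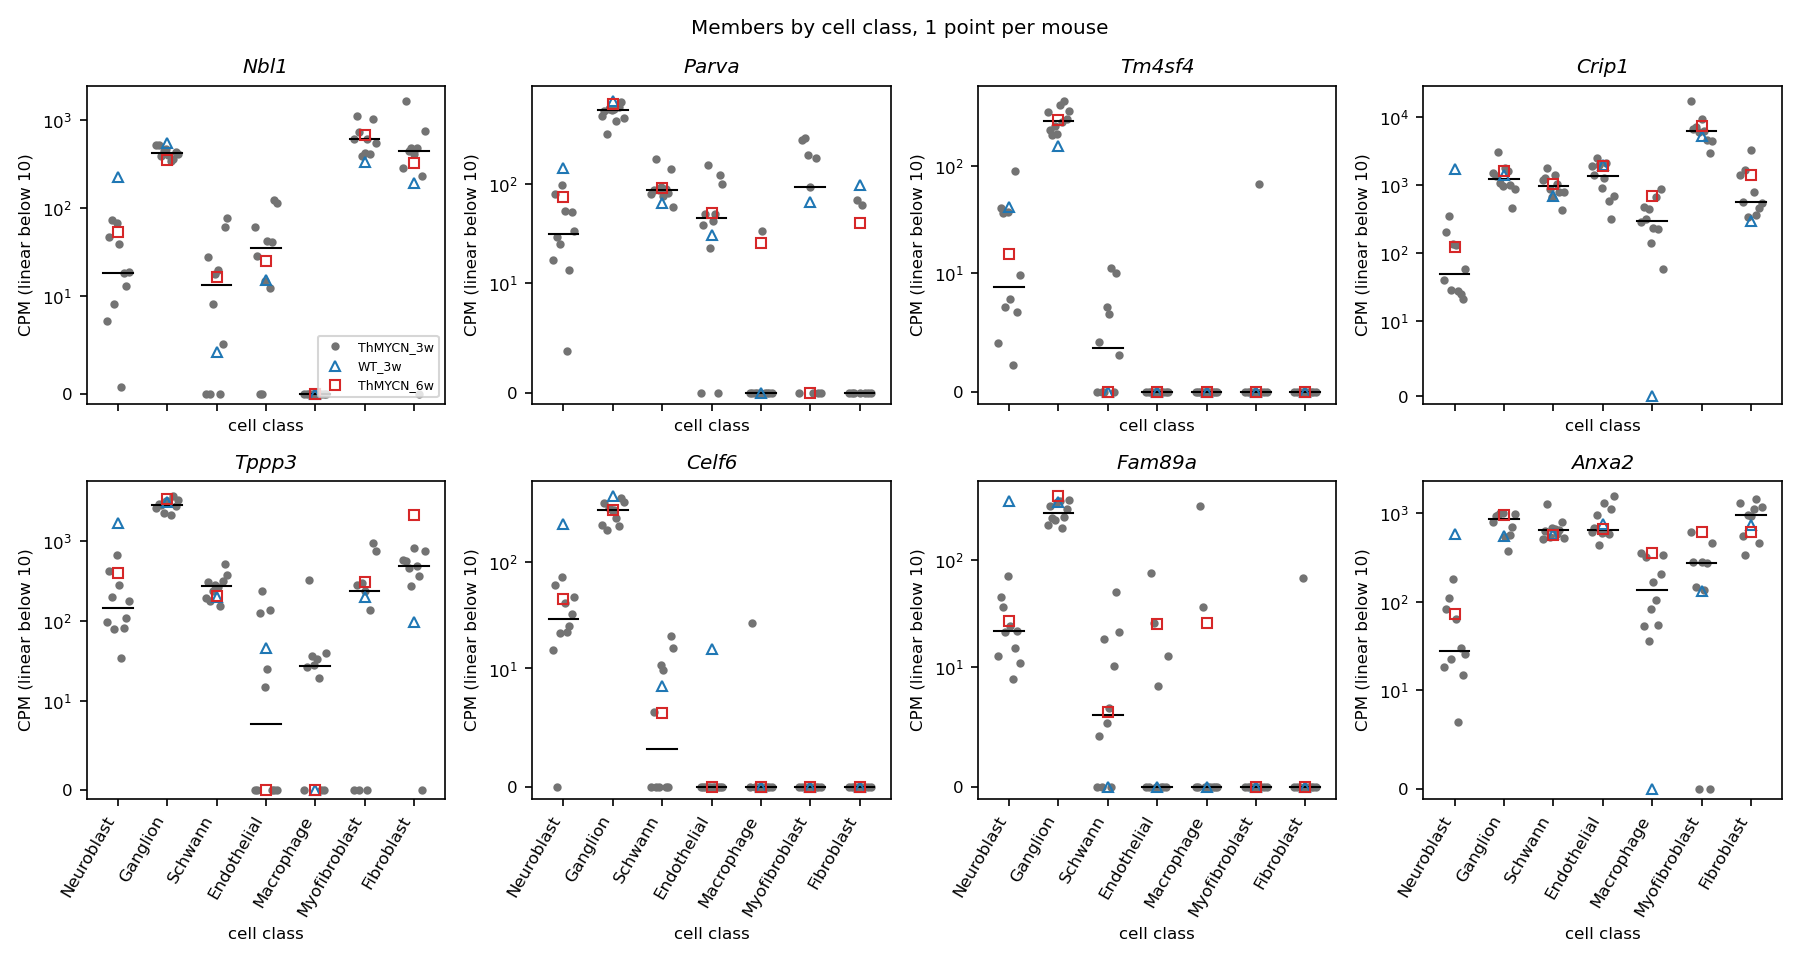
CPM of each member (vertical axis, linear below 10 and logarithmic above) in each cell class, with 1 point per ThMYCN_3w mouse, a black line at their median, a triangle for WT_3w and a square for ThMYCN_6w. In the ThMYCN_3w mice ganglion-like cells lie above neuroblast-like cells for all 8 members, which WT_3w does not show for Crip1, Fam89a and Anxa2, while Crip1 reaches 17420.5 CPM in myofibroblast-like cells. Neuroblast-like cells of WT_3w drew 67.4% of their UMIs from 1 cell. Without that cell only Anxa2 is such an exception, at 759 CPM (95% interval 392 to 1326).

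Shares of cells with a UMI followed the levels once depth was made equal. Cells with fewer than 500 UMIs were left out and the others thinned to 500, which kept 3671 neuroblast-like cells (median depth before thinning 2605 UMIs) and 2057 ganglion-like cells (median 1153) of the ThMYCN_3w mice. Tppp3 was seen in 72.1% of ganglion-like cells (86.5% unthinned) and in 4.58% of neuroblast-like cells (16.3% unthinned). Crip1 was seen in 62.7% (76.5%) and 2.56% (8.14%), respectively. Anxa2, Nbl1 and Parva were seen in 34.9%, 18.2% and 16.9% of thinned ganglion-like cells (60.5%, 41.3% and 38.9% unthinned), and Fam89a, Celf6 and Tm4sf4 in 11.96%, 11.1% and 10.4% (32.2%, 31.5% and 26.8%). For the last 6 genes the thinned share in neuroblast-like cells lay between 0.327% (Tm4sf4) and 1.498% (Celf6), and unthinned between 1.48% and 6.68%. Tm4sf4 had a UMI in 0.0550% of 1818 thinned Schwann-like cells (0.499% unthinned, median depth 984 UMIs) and Tppp3 in 2.66% of 301 thinned endothelial-like cells, and for Crip1 no such background is given. A thinned ganglion-like cell held UMIs of 2.38 members on average, and 44.2% of such cells held at least 3. In neuroblast-like cells the average was 0.133, and 0.490% held at least 3. Without #2, which gave most of the ganglion-like cells, 671 thinned ones remained. Crip1 was then seen in 35.6%, Tppp3 in 69.0%, Anxa2 in 30.1% and the other members in 13.6% (Fam89a) to 19.7% (Nbl1), with 2.15 members per cell and 37.6% of cells at 3 or more.

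Free RNA, read from barcodes with at most 100 UMIs, carried all 8 transcripts. Its mean level over the 10 mice was 1112 CPM for Crip1, 965 for Tppp3, 384 for Anxa2 and between 100.1 (Celf6) and 141 (Parva) for the other members. The level in neuroblast-like cells was under that of free RNA in 10 of 10 mice for 6 members and in 9 for Parva and Celf6. By an estimate per library, free RNA made up a median of 7.41% of UMIs in neuroblast-like, 20.4% in ganglion-like and 9.50% in Schwann-like cells. With that estimate subtracted, Crip1 was at 10.998 ± 26.5 CPM in neuroblast-like and 1422 ± 820.3 CPM in ganglion-like cells, and Tppp3 at 135 ± 165 and 3398 ± 595 CPM.

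Schwann cells and satellite glia wrap the neurons of the ganglion, and this contrast is not the one that selected the members. They were selected for high ganglion-like levels in the same sums, however, so that differences in favour of ganglion-like cells are a description here too, and p is given only for the 2 members that did not pass. Which p is printed thus followed the outcome, and both come from sums that the selection used. The fit used edgeR's quasi-likelihood test on UMIs summed per mouse and class, the mouse as a block and Benjamini-Hochberg adjustment over all 3169 genes tested. Members went separate ways. Tm4sf4, Celf6, Fam89a, Nbl1, Tppp3 and Parva were higher in ganglion-like than in Schwann-like cells, whereas Crip1 and Anxa2 had differences near 0 that did not pass the test.

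Tm4sf4 was at 0, 3.65 and 11.1 CPM (lowest, median and highest mouse) in Schwann-like cells, a log2 difference of 5.69 (SE 0.30, higher in ganglion-like cells of 10 of 10 mice). Celf6 was at 0, 3.17 and 20.2 CPM in Schwann-like cells, and the log2 difference was 5.16 (SE 0.29, 10 of 10 mice). Both genes were close to absent from the glia of every mouse. Tppp3 was present there at 155, 272 and 505 CPM, and still lower than in ganglion-like cells by a log2 difference of 3.19 (SE 0.15, 10 of 10 mice). For Parva the difference was 2.52 (SE 0.14, 10 of 10 mice). Those for Fam89a and Nbl1 were 4.64 and 4.03 (SE 0.31 and 0.30), each in 10 of 10 mice. No Schwann-like value of Tppp3 or Parva reached the ganglion-like range. Tm4sf4, Celf6, Fam89a and Nbl1 passed the filter on low counts through their ganglion-like sums, so nothing is read from their ranges.

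Crip1 had 434, 952 and 1779 CPM in Schwann-like cells, with #2 highest as in ganglion-like cells. Its ganglion-like level was the higher in 10 of 10 mice but the ranges overlapped, and the log2 difference after TMM scaling was 0.23 (SE 0.13, adjusted p = 0.131 by edgeR's quasi-likelihood test with Benjamini-Hochberg adjustment). Over 22 alternative settings the difference for Crip1 ran from 0.16 to 0.59 and the adjusted p from 0.00894 to 0.425, with 3 settings under 0.05. These were the stricter cell filter (0.31), DESeq2 in place of edgeR (0.30) and no filter on low counts (0.59). Anxa2 had 509, 637 and 1246 CPM in Schwann-like cells, the highest again in #2. It was higher in ganglion-like cells in 5 of 10 mice, with a log2 difference of 0.12 (SE 0.16, adjusted p = 0.501 by edgeR's quasi-likelihood test with Benjamini-Hochberg adjustment). Over the alternatives this difference ranged from −0.02, without #9, to 0.46, and the adjusted p from 0.0517 to 0.943.

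In this comparison 2255 of 3169 genes (71.2%) passed, 1247 of them higher and 1008 lower in ganglion-like cells. Nbl1, Tm4sf4, Celf6 and Fam89a had 63, 11, 19 and 25 UMIs in all 10 Schwann-like sums together and passed the filter on low counts through their ganglion-like sums. Such genes had to differ, and no count or median over the members is used. Parva, Crip1, Tppp3 and Anxa2 met the limit of the filter in all 10 sums of either class. Without #2 the 6 differences ran from 2.62 (Parva) to 5.76 (Tm4sf4), and Crip1 and Anxa2 stood at 0.23 and 0.20 with neither call changed.

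Outside the neurons and glia, members had unlike places. Nbl1 was also abundant in mesenchymal cells, with 654 ± 268 CPM in myofibroblast-like (n = 9) and 529 ± 474 CPM in fibroblast-like cells (n = 9). Ganglion-like cells exceeded myofibroblast-like cells of the same mouse for Nbl1 in 1 of 9 mice and fibroblast-like cells in 4 of 9, and the ranges over mice overlapped. The fibroblast-like mean leaned on #2 at 1669 CPM, and it was 386 ± 219 without #2. Endothelial-like cells had 43.9 ± 44.2 CPM of Nbl1, and macrophage-like cells had 0 UMIs in 215 cells.

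Crip1 was highest in myofibroblast-like cells, the class of pericytes and smooth muscle marked by Acta2 and Rgs5. It ranged there from 3007 (#8) through 6161 to 17420.5 CPM (#1), above the ganglion-like level of the same mouse in 9 of 9 mice. Endothelial-like cells, at 1363 ± 737 CPM, and fibroblast-like cells, at 1047 ± 959.9 CPM, could not be ordered against ganglion-like cells, which were higher in 6 of 10 and 6 of 9 mice. Macrophage-like cells had less Crip1, 369.9 ± 248 CPM. Anxa2 was likewise spread over several classes. It was at 914 ± 383 CPM in fibroblast-like and 846 ± 370.1 CPM in endothelial-like cells, where ganglion-like cells were higher in 4 of 9 and 4 of 10 mice. Myofibroblast-like and macrophage-like cells had less Anxa2, with 243 ± 202 and 171 ± 124 CPM.

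The other 5 members were highest in ganglion-like cells. For Tppp3 the next class was fibroblast-like cells at 473 ± 247 CPM, followed by myofibroblast-like cells at 289 ± 332, and neither range touched the ganglion-like one. Parva reached 116 ± 124 CPM in myofibroblast-like and 58.3 ± 52.1 CPM in endothelial-like cells. Tm4sf4 and Celf6 gave 0 UMIs in 432 endothelial-like cells. Fam89a was seen in macrophage-like cells of #2 at 318 CPM, in a sum of few UMIs, and in most other mice at 0, and this made it overlap with ganglion-like cells, which were higher in 9 of 10 mice. The NKT-like class rested on 2 mice and 25 cells, in which 5 members had no UMI.

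Ganglion-like cells spanned a wide range of depth, and the members were looked at on both sides of 2000 UMIs, in 1895 cells below it and 616 at or above it. Since the members may have been selected with such neurons in view, these values too are a description. Nbl1 was at 313 ± 145 CPM in low-UMI and 446 ± 76.3 CPM in high-UMI cells, and Parva at 429 ± 100.1 and 537 ± 108. Fam89a was at 225 ± 83.2 and 285 ± 62.4 CPM. Tm4sf4, at 264 ± 146 and 279.7 ± 82.1 CPM, and Anxa2, at 726 ± 284 and 798 ± 249, had no clear side, the low-UMI cells being higher in 6 and 5 of 10 mice. Tppp3, Crip1 and Celf6 had log2 differences, low over high, of −0.16, −0.26 and −0.08. The low-UMI level was the lower in 8 of 10 mice for Nbl1, Parva and Celf6, in 7 for Tppp3 and Fam89a and in 6 for Crip1. Some low-UMI sums held few UMIs, such as 2 of Nbl1 in #1, #3 and #6 and 1 of Fam89a in #7. A single UMI could set the direction in such a mouse. Both groups of cells overlapped for every member.

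The members' median log2 difference between low-UMI and high-UMI cells was −0.20, against −0.00 over 1843 genes, and the 8 members all passed the low-count filter. Of all genes 7 (0.380%) passed the adjusted threshold. Without #2 the count was 18, and without #3, #4, #6 or #8 it was 4, 2, 4 and 3. Without #5 it was 0 in edgeR, with 126 genes at an unadjusted p under 0.05, and DESeq2 with all 10 mice called 8. Ganglion markers were alike on both sides, 36289 CPM in low-UMI and 38166 CPM in high-UMI cells, as were Schwann markers, 1748 and 1532 CPM.

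Within neuroblast-like cells the members were compared between cells with little and with much cell cycle expression. This contrast did not select them, but it is not independent of the one that did. Cells with little cell cycle expression also held more of the ganglion markers, as given below, so the members' differences are a description. Cells with at least 1000 UMIs were ranked in each mouse by the share of their UMIs in S and G2M genes and split into 3 parts of equal size. The 1010 cells of the highest part (high-cycle) were set against the 1010 of the lowest (low-cycle). Such parts are stretches of a continuous score, not kinds of cell, and cells on either side of a limit differ little. All 8 members had a lower mean in high-cycle cells. Tppp3 was at 0, 225 and 1557 CPM (lowest, median and highest mouse) in low-cycle cells and at 0, 51.3 and 61.8 CPM in high-cycle cells. It fell in 9 of 10 mice and was at 0 on both sides in #2, which gave only 7 cells to each, with a log2 difference of −3.08 (SE 0.28). Crip1 was at 29.4, 99.99 and 494 CPM in low-cycle and at 0, 19.3 and 42.5 CPM in high-cycle cells. It fell in all 10 mice, by 2.54 on the log2 scale (SE 0.31). Celf6 was at 0, 42.7 and 146 CPM in low-cycle and 0, 14.9 and 33.5 CPM in high-cycle cells, lower in 9 of 10 mice by a log2 difference of −1.77 (SE 0.27). The ranges over mice overlapped for each of these genes.

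Only these 3 members had enough UMIs for the fit, in which 1798 of 5138 genes (35.0%) passed. They met the limit of the low-count filter mostly in low-cycle cells, in 9, 10 and 7 of 10 sums for Tppp3, Crip1 and Celf6, against 7, 4 and 3 of 10 in high-cycle cells. Their UMIs were 2838, 915 and 365 in low-cycle and 244, 116 and 93 in high-cycle cells. Since the filter thus favoured genes with more in low-cycle cells, no test of them is given. Nbl1, Parva, Tm4sf4, Fam89a and Anxa2 did not enter the fit and had means of 54.8, 83.9, 58.0, 51.4 and 102 CPM in low-cycle and 2.60, 11.7, 1.63, 3.93 and 8.49 CPM in high-cycle cells, where Nbl1 had a median of 0 and reached 19.6 CPM in #7. The low-cycle mean of Tm4sf4 leaned on #7 (288 CPM, median 19.0) and that of Anxa2 on #4 (431 CPM, median 45.3). Without #2 the differences were −3.10 for Tppp3, −2.54 for Crip1 and −1.79 for Celf6, and Nbl1 then entered the fit too, at −5.02. When the filter took account of the block, or was left out, all 8 members entered the fit and had less in high-cycle cells. Of all genes tested in these settings 33.8% and 17.6% passed in either direction. Nbl1, Parva, Tm4sf4, Fam89a and Anxa2 had met the limit in 0 of 10 high-cycle sums, so nothing is read from that count.

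Few cells carried most of this difference. On the scale from neuroblast-like (0) to ganglion-like (1) described below, 87 of the 1010 low-cycle cells lay at 0.3 or above, against 9 of the 1010 high-cycle cells. Those 87 cells held from 68.2% (Celf6) to 90.5% (Anxa2) of the members' UMIs in low-cycle cells. With only cells below 0.3 kept, an alternative chosen after seeing the data, the median over mice in low-cycle and high-cycle cells was 143 and 51.3 CPM for Tppp3, 43.1 and 19.3 for Crip1 and 27.8 and 14.5 for Celf6. The low-cycle level was then the higher in 9, 7 and 8 of 10 mice, and the mean of each of the 8 members stayed higher in low-cycle cells.

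Markers of other classes moved along with this contrast. The 16 ganglion markers summed to 7262 ± 4714 CPM in low-cycle and 2105 ± 238 CPM in high-cycle cells, and were higher in low-cycle cells of 10 of 10 mice. In neuroblast-like cells as a whole, the most abundant of them was Fxyd6 at 549 CPM, and none was at 0. The 12 Schwann markers, with Dbi the most abundant at 210.4 CPM and none at 0, summed to 711 ± 754 and 233 ± 64.2 CPM. The neuroblast markers went the other way, from 17357 ± 3258 to 25142 ± 1840 CPM, and the median depth was 3812 UMIs in low-cycle and 4566 in high-cycle cells. What Schwann transcripts contributed to the members' difference was not tested.

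**Figure D2:**
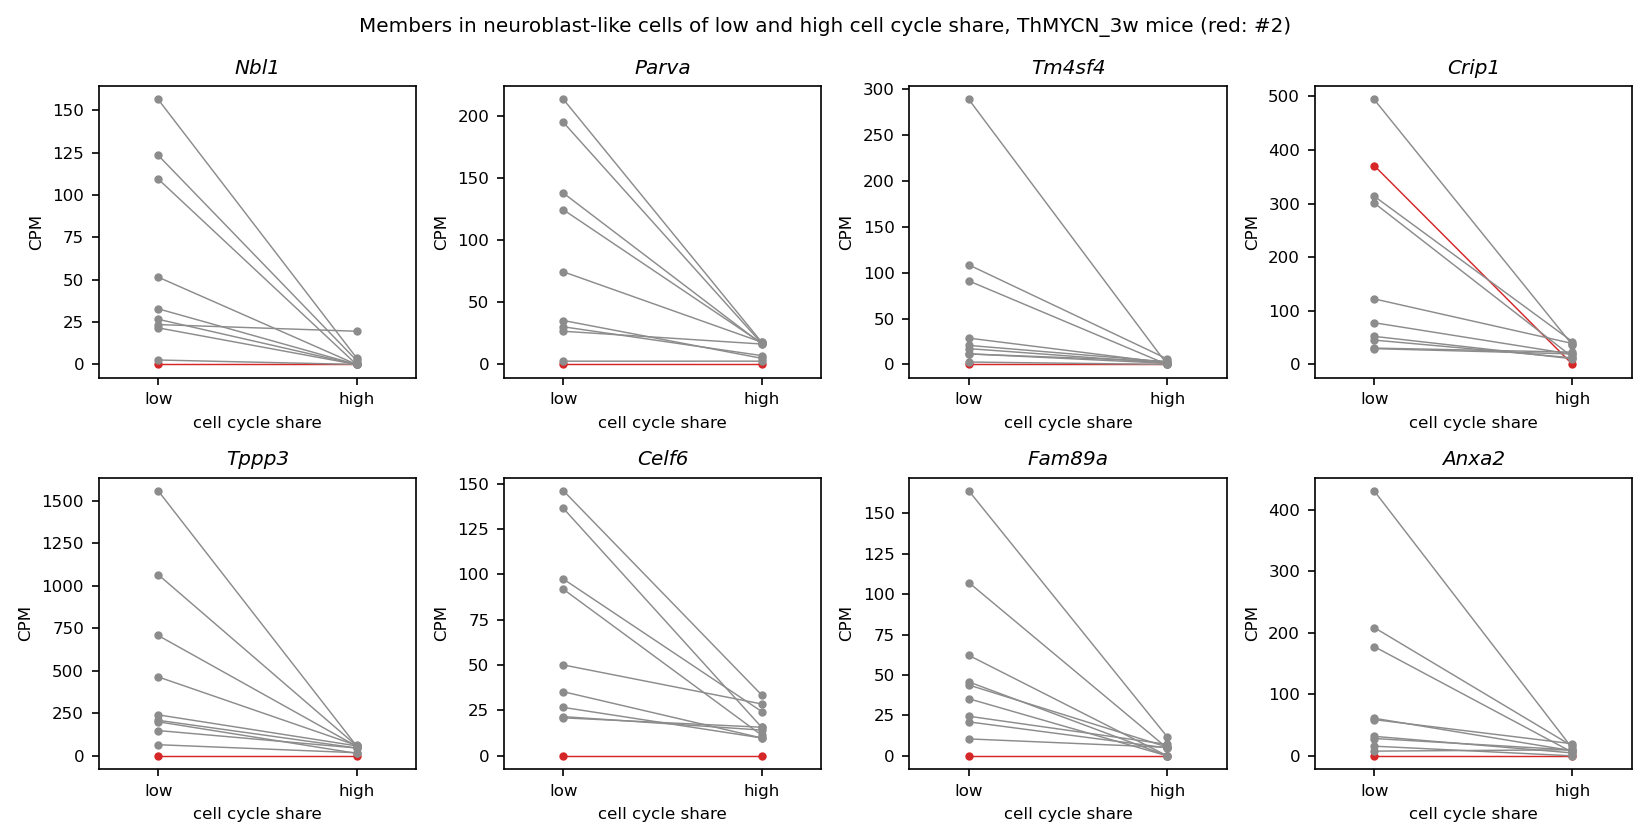
CPM of each member in low-cycle and high-cycle neuroblast-like cells, with a line for each ThMYCN_3w mouse and #2 in red. Lines run downward for most mice, and Crip1 falls in all 10.

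Cells were also placed between the neuroblast-like and ganglion-like states, on a scale where 0 is the median neuroblast-like and 1 the median ganglion-like cell. The scale counts 127 ganglion and 36 malignant genes from the study's own supplementary list, which was drawn from these libraries and holds no member. The members were selected on the contrast between its ends, so low levels near 0 and high levels near 1 followed from the selection. Values along the scale, and the counts of mice given with them, are a description. After thinning to 1000 UMIs, 4486 cells of the ThMYCN_3w mice were placed, of which 121 (2.70%) lay between 0.3 and 0.7, 82 of them named neuroblast-like and 39 ganglion-like. Below 0 and from 0 to 0.3, with 1424 and 1514 cells, each member's mean stood at 0.727% to 7.17% of its level at 0.7 and above. In the range of 0.3 to 0.7 it stood between 20.04% (Parva) and 76.6% (Nbl1) of that level. Tppp3 went from 64.8 and 99.2 CPM through 1036 ± 439 to 2666 ± 775 CPM, and was at 500 CPM or more there in every mouse. Nbl1 was at 319 ± 209 CPM there and at 416 ± 138 beyond, with all 10 mice above 0 in both.

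Crip1 stood at 57.3%, Celf6 at 55.1%, Fam89a at 41.3%, Tppp3 at 38.9%, Anxa2 at 32.8% and Tm4sf4 at 26.2%. Without #2, Crip1 was at 41.9% and Anxa2 at 21.3%, since 68 of 114 and 23 of 39 UMIs in that range came from #2, and the others were between 20.3% (Parva) and 76.3% (Nbl1). These shares rest on 10 (Tm4sf4) to 138 (Tppp3) UMIs, and their order is uncertain. Some mice had about 5 cells in that range, where a single UMI gives a level as large as some of these means, so no change is read from levels of that size. Of the placed cells 1051 lay within 0.05 of a limit, and without #2 the range from 0.7 upward held 507 cells in place of 1427. With limits of 0.2 and 0.6 in place of 0.3 and 0.7, the middle range held less of every member, such as 102 CPM of Nbl1, 311 of Crip1, 100.8 of Anxa2 and 428 of Tppp3, so its levels depend on the limits. Without the highest 5% of Scrublet scores, 71 cells of 7 mice with at least 5 cells each entered the means there. Parva was then at 243 CPM and Tm4sf4 at 36.3, beside 120.5 and 86.2 over 10 mice. The mice as well as the cells differ between these means. Thinning to 500 UMIs took Celf6 in that range from 158 to 41.8 CPM and Nbl1 from 319 to 173.

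**Figure D3:**
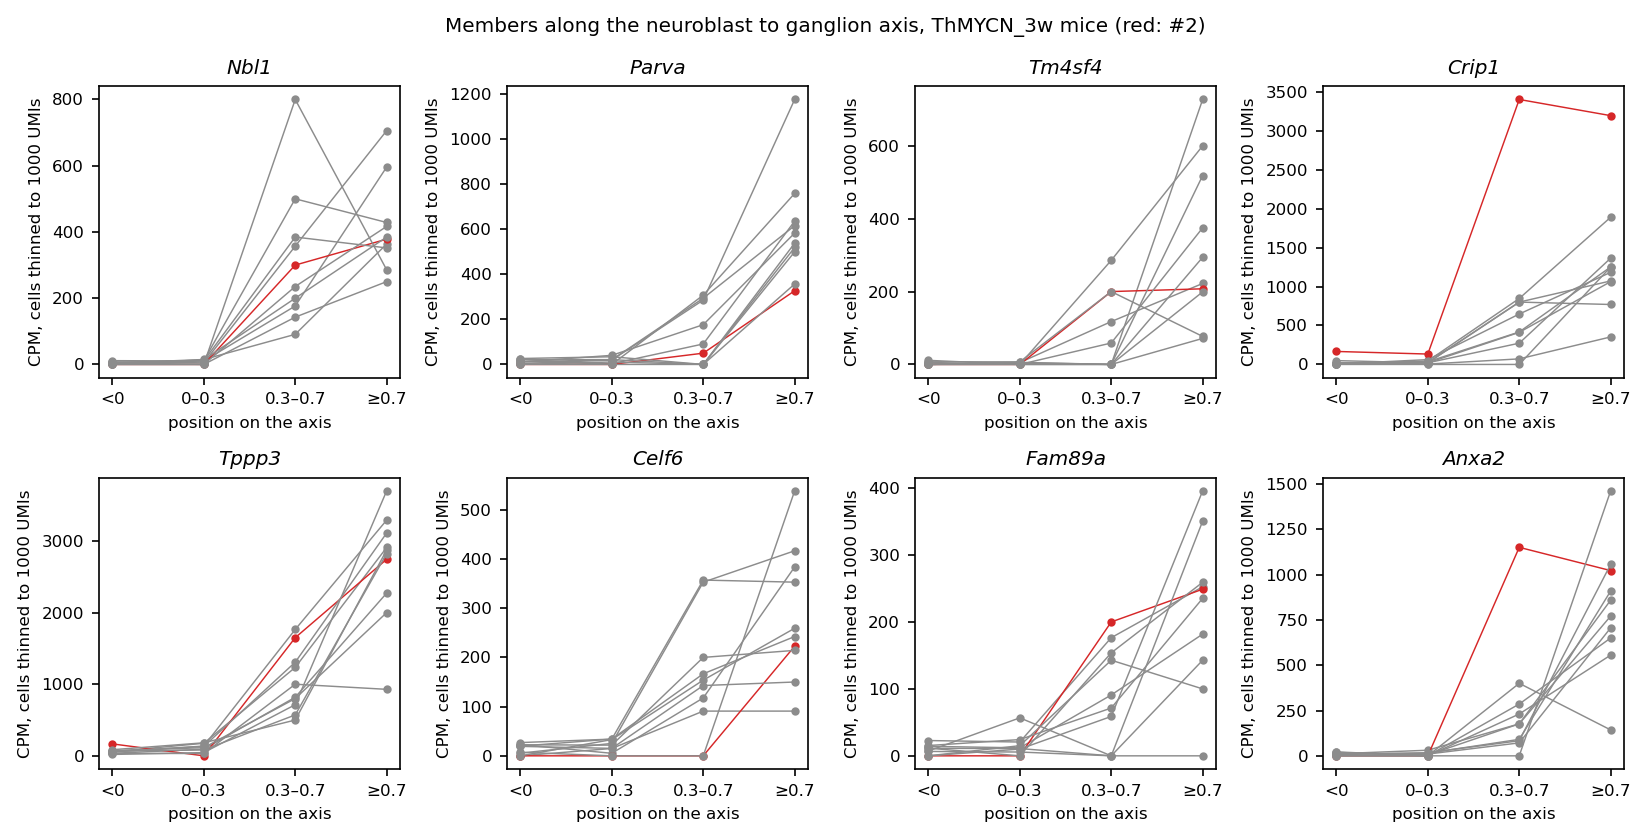
CPM of each member in 4 ranges of the scale from neuroblast-like (0) to ganglion-like (1), with a line for each ThMYCN_3w mouse and #2 in red. Levels below 0.3 are low for all 8 members, and values between 0.3 and 0.7 scatter widely, since that range holds 121 cells.

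The conditions with 1 mouse each allowed no test, and their values are set beside the range of the 10 ThMYCN_3w mice. In the 88 ganglion-like cells of WT_3w, Nbl1 was at 549.8 CPM (95% interval 469.8 to 639), Parva at 700.3 (609.6 to 801) and Celf6 at 416 (346 to 494), each above the highest ThMYCN_3w mouse, though each interval reached into the range. Tm4sf4 was at 154 CPM (113 to 205), under the lowest mouse, again with an interval that touched the range. Crip1, Tppp3, Fam89a and Anxa2 were inside it, and with free RNA subtracted 7 of the 8 members were. In the 147 ganglion-like cells of ThMYCN_6w, Fam89a was at 394 CPM (363 to 427), above the highest ThMYCN_3w value of 356 with an interval clear of it, and the other 7 members were inside the range.

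Neuroblast-like cells of ThMYCN_6w, 359 in number, had Nbl1 at 53.9 CPM, Parva at 73.8 and Crip1 at 123, inside the ranges of the ThMYCN_3w mice. Of the 48468 UMIs in the 43 WT_3w cells of that name, 32661 (67.4%) came from 1 cell, which lay at 0.7 or above on the scale and had 2051 CPM of Crip1 and 2296 of Tppp3. The other 42 cells had a median of 348.5 UMIs. Their sum held Crip1 at 949 CPM (531 to 1565), Anxa2 at 759 (392 to 1326) and Tppp3 at 316 (103 to 738), and no UMI of Tm4sf4, Celf6 or Fam89a. Free RNA of WT_3w held 1566 CPM of Crip1, 694 of Anxa2 and 1681 of Tppp3. What these cells are was not tested. In fibroblast-like cells of ThMYCN_6w, Tppp3 was at 2063 CPM (1536 to 2713), above the highest ThMYCN_3w mouse at 817.

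Relatives of each member, 87 genes in 8 lists of protein families and partners, were tested in the same fits with edgeR, and in the contrast of ganglion-like with neuroblast-like cells 51 had enough UMIs. Of these, 29 were higher and 11 lower in ganglion-like cells, where 33.5% of all genes tested were higher and 35.3% lower. Their median log2 difference was 0.65. Some relatives had few UMIs in a class, such as Bmp4 and Parvb in neuroblast-like and Celf2 in ganglion-like cells. Such genes could pass the low-count filter through the other class and then had to differ. Their differences are a description. They are part of the counts and medians over relatives, so nothing about the lists is read from these. The lists were chosen with earlier results of these data known, so a p printed for a relative is no test planned in advance.

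Among BMP antagonists and BMP signalling genes, around Nbl1, 14 of 31 were tested, with 7 higher and 2 lower. Bmp4, a ligand that such antagonists bind, was at 43.2 ± 14.8 CPM in ganglion-like and 0.885 ± 1.49 CPM in neuroblast-like cells, a log2 difference of 5.03 (SE 0.44, 10 of 10 mice). Fst, whose product follistatin binds activins and BMPs, followed at 4.75 (SE 0.42) and Bambi, a decoy receptor, at 2.72 (SE 0.35), both in 10 of 10 mice. Sostdc1, an antagonist with a cystine knot as in DAN proteins, rose by 1.74 (SE 0.41) in 9 of 10 mice. It was far higher in Schwann-like cells, with 3907 ± 835 CPM against 115 ± 71.5 in ganglion-like cells, a log2 difference of −5.44 (SE 0.29, adjusted p = 1.36e-13 by edgeR's quasi-likelihood test with Benjamini-Hochberg adjustment, 10 of 10 mice). Schwann markers, at 47080.2 CPM in Schwann-like cells, summed to 1542 ± 758 CPM in ganglion-like and 694 ± 877 CPM in neuroblast-like cells. What Schwann transcripts contributed to the rise of Sostdc1 was not tested. Sostdc1 was named after its values were seen, so its p is a description. Of 5 genes of the list tested against Schwann-like cells, 1 was higher in ganglion-like cells, Fst by 2.77 (SE 0.25, 10 of 10 mice), and 4 were lower, beside 39.4% and 31.8% of all genes tested.

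Of 15 genes of the parvin complex and integrin adhesion, 12 were tested, 8 being higher and 2 lower in ganglion-like than in neuroblast-like cells. Parvb, the other widely expressed parvin, was at 37.9 ± 11.4 against 2.64 ± 3.08 CPM, with a log2 difference of 3.52 (SE 0.36, 10 of 10 mice). Fermt2, encoding the integrin activator kindlin-2, rose by 2.04 (SE 0.20) and Zyx, encoding zyxin of focal adhesions, fell by 1.77 (SE 0.22), each in 10 of 10 mice. In Schwann-like cells Fermt2, Ilk and Rsu1 were higher than in ganglion-like cells, by log2 differences of −1.68, −1.10 and −1.24 in 10 of 10 mice, whereas Parva was lower there. Parvg was not tested. Of the L6 family only Tm4sf1 could be tested, and it was higher in ganglion-like than in neuroblast-like cells by 3.98 (SE 0.41, 10 of 10 mice). Tm4sf1 was also present in glia, with 230.5 ± 62.0 CPM in Schwann-like and 203 ± 46.6 CPM in ganglion-like cells (log2 difference −0.32, adjusted p = 0.0979 by edgeR's quasi-likelihood test with Benjamini-Hochberg adjustment, lower in 7 of 10 mice).

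Of annexins and S100 proteins, around Anxa2, 9 of 16 were tested and 9 of 9 were higher in ganglion-like than in neuroblast-like cells, as were 33.5% of all genes tested. S100a10, the light chain that pairs with annexin A2, was at 577, 1316 and 2020.1 CPM in ganglion-like cells and averaged 155 ± 105 CPM in neuroblast-like cells, a log2 difference of 3.33 (SE 0.22, adjusted p = 4.45e-11 by edgeR's quasi-likelihood test with Benjamini-Hochberg adjustment, 10 of 10 mice). S100a11 at 4.63, S100a6 at 4.26 and Ahnak at 3.52 had the largest differences of the list. Anxa5, Anxa4, Anxa7 and Anxa6 rose by 3.06, 2.76, 2.68 and 2.30, each in 10 of 10 mice. Anxa1, Anxa3, Anxa8, Anxa9, Anxa10 and Anxa11 were not tested. S100a10 was named after its values were seen, so each p given for it is a description. Against glia S100a10 and Anxa2 came apart. S100a10 was higher in ganglion-like than in Schwann-like cells, 1362.5 ± 425 against 264 ± 62.1 CPM, by 2.09 (SE 0.16; edgeR's quasi-likelihood test, Benjamini-Hochberg adjusted p = 5.49e-11, 10 of 10 mice), while Anxa2 was not, a difference between the genes that was not itself tested. Anxa5 was lower in ganglion-like than in Schwann-like cells by a log2 difference of −0.92, in 10 of 10 mice.

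Of 5 small LIM-domain proteins, around Crip1, 3 were tested. Crip2 was at 1695 ± 121 CPM in ganglion-like and 179.8 ± 85.3 CPM in neuroblast-like cells and had a log2 difference of 3.36 (SE 0.17, adjusted p = 1.33e-12 by edgeR's quasi-likelihood test with Benjamini-Hochberg adjustment, 10 of 10 mice). Csrp1 rose by 2.50 (SE 0.14) and Csrp2 fell by 2.74 (SE 0.23), in 10 of 10 mice each. Csrp1 and Csrp2 encode LIM proteins of actin filaments, so paralogs of 1 family took opposite directions. Against Schwann-like cells Csrp1 was lower in ganglion-like cells, by a log2 difference of −0.89 (SE 0.14) in 10 of 10 mice, and the difference of Crip2 was 0.27 (SE 0.12, adjusted p = 0.0569 by edgeR's quasi-likelihood test with Benjamini-Hochberg adjustment, 9 of 10 mice). Tppp, a paralog of Tppp3, had 14.4 CPM in ganglion-like and 3.03 CPM in neuroblast-like cells and was not tested.

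Of 13 RNA-binding proteins listed around Celf6, 11 were tested, 2 being higher and 6 lower in ganglion-like than in neuroblast-like cells, beside 33.5% and 35.3% of all genes tested, with a median log2 difference of −0.52. Celf2 was at 6.42 ± 5.32 CPM in ganglion-like and 43.0 ± 14.8 CPM in neuroblast-like cells, and fell by 2.72 (SE 0.26, 10 of 10 mice). Celf1 fell by 0.95, Celf5 by 0.87 and the neuronal Hu gene Elavl3 by 0.95, in 9, 9 and 10 of 10 mice. Celf4 rose by 0.65 in 10 of 10 mice, and Celf3 had a difference of 0.36 that did not pass. In Schwann-like cells Celf2 was at 281 ± 169 CPM, over ganglion-like cells by a log2 difference of −5.65, while Celf3 and Celf4 were higher in ganglion-like cells by 5.17 and 4.59, each in 10 of 10 mice. Of 8 genes of this list tested against Schwann-like cells, 7 were higher in ganglion-like cells. The 1 lower gene was Celf2, beside 39.4% higher and 31.8% lower of all genes tested. Fam89b, the paralog of Fam89a, had a log2 difference of 0.22 between ganglion-like and neuroblast-like cells, with 180.3 ± 32.9 and 157 ± 13.6 CPM, that did not pass.

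Between low-UMI and high-UMI ganglion-like cells, 0 of 25 tested relatives passed in edgeR with 3 at an unadjusted p under 0.05, and 0 passed in DESeq2. Between low-cycle and high-cycle neuroblast-like cells 29 were tested, with 6 higher and 8 lower in high-cycle cells, against 17.6% and 17.4% of all genes tested. Anxa5, S100a10, Anxa7 and Anxa6 were lower there by log2 differences of −2.22, −1.72, −1.503 and −1.23, in 10, 10, 10 and 9 of 10 mice. Crip2 was lower, at −1.66, in 8 mice and Csrp2 higher by 1.02 in 8. Celf2 was higher by 1.08 in 9 mice and Celf3 lower, at −0.53, in 9. Low-cycle cells also held more of the ganglion markers, 7262 ± 4714 against 2105 ± 238 CPM in high-cycle cells. The differences of relatives in this contrast are therefore a description, as are those of the members. What cells near the ganglion-like end of the scale contributed to them was not tested.

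As a description, each member was correlated with 6597 genes over 42 sums of mouse and class, which share libraries and span 6 classes. Celf6 was most like Nrsn2 (Pearson's r = 0.971), Lhfpl5 (0.966) and Rit2 (0.965), and Tm4sf4 most like Dner (0.962), A830018L16Rik (0.957) and Rit2 (0.955). Parva was most like Tspan17 (0.959), C1qtnf12 (0.924) and Fbxo2 (0.880), and Tppp3 like Fbxo2 (0.915). Fam89a was nearest to Minar2 (0.932), Mrap2 (0.931) and Syt2 (0.928). The genes nearest to Anxa2 were Ifi27 (0.954), Tspo (0.902) and March2 (0.855), those nearest to Crip1 S100a11 (0.899), Tspo (0.891) and Myl6 (0.866), and those nearest to Nbl1 Agtr1a (0.899), Cygb (0.885) and Thy1 (0.884). Over the same sums the 28 pairs of members had r between 0.000119 (Celf6 with Crip1) and 0.933 (Celf6 with Tm4sf4), with a median of 0.726. Within ganglion-like sums alone the r of these 2 pairs was −0.675 and −0.0759, and over the 28 pairs it ran from −0.778 (Crip1 with Parva) to 0.662 (Fam89a with Tppp3).

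The members lie at 8 places on 6 chromosomes of GRCm38. Celf6 and Anxa2 are both on chromosome 9 and Tppp3 and Fam89a both on chromosome 8, and the other 4 are on chromosomes 3, 4, 7 and 12. Parva spans the antisense gene Parvaos, and Anxa2 spans the antisense gene Gm16144 and, on its own strand, the microRNA gene Mir3109, whereas the other 6 overlapped no annotated gene. How the deposited counts treated reads in these overlaps is not known.

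RefSeq promoters of 300 bases, 250 before and 50 after the start, were at hand for 6 of the 8 members, all but Parva and Tppp3. The E-box CACGTG, a sequence that MYC family proteins can bind, occurred in 0 of these 6 on either strand, and in 7.15% of 32851 promoters. The cyclic AMP response element TGACGTCA occurred in Celf6 alone, and in 1.79% of promoters. The GC box GGGCGG was found in Nbl1, Crip1, Celf6, Fam89a and Anxa2, 4, 3, 7, 5 and 3 times, and in 35.7% of promoters. TATAAA was found once each in Tm4sf4 and Anxa2, and in 13.6% of promoters. The GC content was 41.3% in Tm4sf4 and between 63.7% and 78.3% in the other 5, beside a median of 52.7%, and a second listed start of Celf6, at 48.0% GC, held none of the motifs. A match in letters is no evidence of binding, and the absence of a match says nothing of the factor. The sequences given are those of the pairs with the greatest and the least difference between neurons and glia among members with a promoter, from GRCm38.p6, 5′ to 3′ on the gene's own strand, with matches to any of the motifs on either strand in capitals. Adjoining GC boxes run together.
Tm4sf4, chr3:57425160-57425459, plus strand: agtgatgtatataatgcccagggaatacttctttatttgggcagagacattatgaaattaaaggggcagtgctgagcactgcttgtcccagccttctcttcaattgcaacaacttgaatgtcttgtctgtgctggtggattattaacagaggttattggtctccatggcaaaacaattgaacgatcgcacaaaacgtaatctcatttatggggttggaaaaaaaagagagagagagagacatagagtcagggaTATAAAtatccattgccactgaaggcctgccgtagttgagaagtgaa
Celf6, chr9:59578087-59578386, plus strand: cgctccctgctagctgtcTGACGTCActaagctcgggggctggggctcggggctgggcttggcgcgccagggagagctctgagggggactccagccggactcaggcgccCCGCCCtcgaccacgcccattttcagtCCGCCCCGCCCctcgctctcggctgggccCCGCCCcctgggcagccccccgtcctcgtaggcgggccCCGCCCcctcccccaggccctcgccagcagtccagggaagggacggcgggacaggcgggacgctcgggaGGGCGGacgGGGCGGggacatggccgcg
Crip1, chr12:113151762-113152061, plus strand: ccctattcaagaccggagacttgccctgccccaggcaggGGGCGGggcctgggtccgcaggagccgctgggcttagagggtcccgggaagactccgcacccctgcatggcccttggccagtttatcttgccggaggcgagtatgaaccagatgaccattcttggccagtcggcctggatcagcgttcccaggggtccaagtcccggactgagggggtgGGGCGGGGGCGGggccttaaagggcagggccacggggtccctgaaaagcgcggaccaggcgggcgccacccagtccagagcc
Anxa2, chr9:69453433-69453732, plus strand: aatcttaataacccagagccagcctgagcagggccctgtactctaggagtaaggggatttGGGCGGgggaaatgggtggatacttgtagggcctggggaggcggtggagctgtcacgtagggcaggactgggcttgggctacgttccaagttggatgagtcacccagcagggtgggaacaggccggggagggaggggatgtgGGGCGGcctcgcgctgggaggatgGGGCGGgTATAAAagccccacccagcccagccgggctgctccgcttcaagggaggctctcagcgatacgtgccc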

How the data were processed

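The deposited UMI counts of 12 SMG libraries were made by the authors with Cell Ranger 3.0.2 on mm10 with the human MYCN transgene added. The annotation release was not stated, and barcodes had not been selected. The submitters' processing notes also name Seurat. The members and all gene lists were chosen with earlier results of these data known.

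Cells were called with the EmptyDrops method (false discovery rate 0.01), with free RNA from barcodes with at most 100 UMIs, and kept with at least 200 genes, at most 10% mitochondrial and at most 60% ribosomal UMIs. Of 16236 barcodes called, 4069 had too few genes and 224 too much mitochondrial RNA. Kept cells numbered 618 in WT_3w, 945 in ThMYCN_6w and 522 to 1866 in ThMYCN_3w mice. Scrublet, run in scanpy 1.11.5, marked 51 of 12049 cells (0.423%), under the 0.5% required here for its calls to be used. Whether it missed doublets was not tested. It was used only in an alternative that drops the top 5% of its scores. Python 3.11.15, numpy 2.4.6, scipy 1.17.1, pandas 2.3.3 and matplotlib 3.10.9 were used.

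Counts were normalized with sctransform 0.4.2 and clustered in Seurat 5.3.0 under R 4.3.3, with 2000 variable genes, 30 components and resolution 0.5. Clustering used neither members nor relatives nor the transgene. A cluster took a class name when at least 3 markers of a list, and at least 50% of it, were 1.5 times higher than elsewhere and seen in 10% of its cells. Marker folds first came from summed counts, which left clusters of 1368 and 724 shallow cells unnamed, and were then changed to means over cells.

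UMIs were summed per mouse and class with at least 5 cells and fitted in edgeR 4.0.16 (TMM, filterByExpr, quasi-likelihood test, Benjamini-Hochberg adjustment, threshold 0.05) with the mouse as a block. Both sums of a mouse come from 1 library, and after removal of the class means they correlated across genes with a median r between 0.128 and 0.255 by comparison and a lowest r of 0.00130. The grouping that filterByExpr was given was changed from the block design to the classes after counts of called genes had been seen. The code was tested on simulated data.

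Named genes are the 8 members, the 3 relatives of each list with the largest difference between ganglion-like and neuroblast-like cells among those that passed, the family members of each gene, and the 3 genes most like each member by Pearson's r of log2(CPM + 10) over sums of at least 20 cells with a mean of at least 20 CPM. Relatives outside that rule, Ilk, Rsu1, S100a10 and Sostdc1, were named after their values were seen. Alternatives covered cell calling, filters, clustering, naming, doublets, DESeq2 1.42.0, the low-count filter, the block, each mouse left out, free RNA and the limits of depth, cell cycle share and the scale. Those on cluster naming from summed counts, on the grouping of filterByExpr and on cell cycle parts below 0.3 on the scale were chosen after seeing the data.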

Additional observations from a re-analysis of the deposited data

Results flagged for a closer look

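Values of the ThMYCN_3w mice were looked at for a mouse far from the rest in 96 groups of values. Of these, 22 were marked, 9 of them in mouse #2. The limit used marks about 1 in 20 groups of independent, normally distributed values. These groups share mice, and some rest on few UMIs, so the count is not set against that rate. No cause was weighed, and values are CPM unless a percent or a count of barcodes is named.

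In #2, 81.2% of cells were ganglion-like (median of the 10 mice 8.85%), 9893 barcodes held over 100 UMIs (median 1502) and 38.9% of UMIs lay in cells (median 80.6%). The same mouse was highest for Crip1 in ganglion-like cells (3082, median 1219.8), Anxa2 in Schwann-like cells (1246, median 637) and Nbl1 in fibroblast-like cells (1669, median 451). It was also highest for Fam89a in endothelial-like cells (75.4) and, in macrophage-like cells, for Fam89a and Tppp3 (318 and 318).

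Among neurons and glia of other mice, Parva in low-UMI ganglion-like cells was high in #1 (642, median 443) and Celf6 in #3 (546, median 267), and Fam89a in Schwann-like cells was high in #8 (50.5, median 5.98). Tm4sf4 was high in neuroblast-like cells of #7 (90.4, median 8.83) and in the low-cycle ones among them (288, median 19.0). Nbl1 in high-cycle cells was at 19.6 in #7 (median 0), and Anxa2 in low-cycle cells at 431 in #4 (median 45.3).

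In the other classes, Crip1 was far from the rest in myofibroblast-like cells of #1 (17420, median 6161) and in fibroblast-like cells of #5 (3269, median 556). Small sums, in which a few UMIs make such a value, gave Tm4sf4 in myofibroblast-like cells of #6 (67.7), Parva in macrophage-like cells of #5 (33.4), Celf6 in macrophage-like cells of #10 (26.6) and Fam89a in fibroblast-like cells of #4 (68.4), each with a median of 0.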

How the results depend on the processing

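Of 22 alternatives to the contrast of neuroblast-like with ganglion-like cells, 22 kept the count of called genes within 1.5 times, as did 20 of 22 for ganglion-like with Schwann-like cells, 22 of 23 for low-cycle with high-cycle cells and 11 of 24 for ganglion-like cells of low and high UMI content. With no filter on low counts the counts were 7092 (Schwann-like), 3049 (cell cycle) and 107 (UMI content), and with filterByExpr given the block, chosen after seeing the data, 3972 (Schwann-like) and 39 (UMI content), since more genes were tested. For UMI content, the other counts were 2 with cells called at 500 UMIs, 13 and 3 with limits of 1000 and 4000 UMIs, and from 0 to 18 with 1 mouse left out. It was 0 in edgeR with the stricter cell filter (119 genes at an unadjusted p under 0.05) and 0 without the mouse as a block (128 such genes), where DESeq2 with the block called 8. The cause was not tested. Leaving out the block gave 2144 (Schwann-like), 1411 (cell cycle) and 5386 (neuroblast-like) called genes. The log2 difference of Anxa2 against Schwann-like cells lay between −0.016 (without #9) and 0.223 (without #6) with 1 mouse left out. With free RNA subtracted, 7 members of WT_3w lay in the range of the 10 mice, in place of 4. With log-normalized clustering the neuroblast-like mean fell from 24.3 to 4.03 CPM for Tm4sf4, from 55.6 to 19.0 for Anxa2 and from 215 to 95.6 for Tppp3, with less of the other 5 members too. Of 144 ganglion-like means 141 moved by less than 1 SD over mice, of 128 condition values 114 stayed within their interval, and of 24 values in the middle range of the scale 22 did not move beyond their SD, which was about as large as the mean for several members.

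The WT_3w and ThMYCN_6w values rest on 1 mouse each, and differences between conditions or ages were not tested. Class names rest on markers, and classes other than neurons and glia gave few cells per mouse. A member at a few CPM in a class is within what free RNA gives at this depth.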
